A study of Mus musculus with 6 samples.

Results

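A set of 32 genes that mark macrophages and leukocytes was followed in 6 primary Schwann cell (SC) cultures from mouse dorsal root ganglia. The genes were taken as a list by symbol and matched by Ensembl identifier to the exonic count table, in which all 32 of them were present among 55401 genes. They comprise the 3 C1q chains, 2 receptors (*Csf1r*, *Cx3cr1*), 7 macrophage surface markers (*Adgre1*, *Cd68*, *Mrc1*, *Cd163*, *Cd14*, *Trem2*, *Ms4a7*), 5 pan-leukocyte genes (*Ptprc*, *Cd53*, *Cd52*, *Laptm5*, *Coro1a*), 3 leukocyte integrins (*Itgam*, *Itgal*, *Itgb2*), 4 ITAM adaptors and Fc receptors (*Tyrobp*, *Fcer1g*, *Fcgr1*, *Fcgr3*), 4 lysosomal, effector or cytoplasmic genes (*Lyz2*, *Ctss*, *Mpeg1*, *Aif1*), the transcription factor gene *Spi1*, and 3 genes of MHC class II (*Cd74*, *H2-Aa*, *H2-Ab1*).

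Bulk poly(A) RNA-seq compared 3 wild-type (WT) cultures with 3 *Plxnb1*-/- cultures, in which both copies of the gene for the semaphorin receptor Plexin-B1 carry an inserted cassette with a transmembrane domain and lacZ. The cultures came from adult mice on a C57BL/6 background. They were grown in medium with forskolin and neuregulin and depleted of fibroblasts with an antibody to Thy1, and no step against macrophages is named in the protocols. Total exonic counts were 63883476, 59252048 and 70967747 in the WT libraries and 77280964, 72461964 and 69385956 in the *Plxnb1*-/- libraries. Levels are given as CPM, the count divided by the library total and multiplied by 1000000. The smallest number taken as detected, 3 counts, equals between 0.0388 and 0.0506 CPM, a limit that covers counting error only. The exact age and the sex of the mice are not given in the sources used here, and nothing states whether cultures of a genotype came from separate animals. P-values therefore measure the spread between these cultures.

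Macrophages are phagocytes that reside in ganglia and nerves and are joined by blood-derived cells after injury. They survive on signals through the CSF1 receptor, take up debris through Fc and complement receptors, sense it through adaptors with an ITAM motif, and digest it in lysosomes. The transcription factor PU.1, the product of *Spi1*, binds purine-rich sites near the start of many of their genes. In a bulk culture, fewer cells of a type and less RNA per cell cannot be told apart.

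The labels were first checked against the targeted gene and against sex-linked RNA. *Plxnb1* was at 61.9, 44.8 and 96.2 CPM in the WT cultures and at 13.3, 16.6 and 18.5 CPM in the *Plxnb1*-/- cultures, with no overlap. The 4 Y-linked genes *Ddx3y*, *Uty*, *Eif2s3y* and *Kdm5d* had 0 counts in each WT culture. Their sum was 156.4 CPM in *Plxnb1*-/- replicate 3, against 5.23 CPM in replicate 1 and 7.13 CPM in replicate 2. *Xist*, the RNA of the inactive X chromosome, was at 11.6 CPM in *Plxnb1*-/- replicate 3 and between 215.1 and 263.3 CPM in the other 5 cultures. The Y-linked sums of *Plxnb1*-/- replicates 1 and 2 were 3.34% and 4.56% of that of replicate 3, with *Xist* at 263.3 and 237.2 CPM, and whether these cultures held cells of both sexes was not tested. *Plxnb1*-/- replicate 3 therefore stood apart, Y-linked RNA was present in every *Plxnb1*-/- culture and in none of the WT cultures, and the share of a genotype difference that goes with sex cannot be told apart from that of the genotype. The summed level and the counts of the 32 genes are therefore given with and without *Plxnb1*-/- replicate 3.

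The promoters of the genes are shown because PU.1 is known to drive part of these genes. Whether PU.1 had a part in their levels in these cultures was not tested. RefSeq promoters (build GRCm38.p6) of 300 bases, 250 before and 50 after the start of transcription, were at hand for 21 of the 32 genes, 25 promoters in all. The motif GAGGAA, the core of the PU.1 site, was searched on both strands, where the other strand reads TTCCTC. At least 1 match was found in 15 of the 25 promoters (60.0%), against 28.3% of all 32817 promoters of this length. By gene, 14 of 21 (66.7%) had a match, against 31.3% of 27025 genes. The 150 bases before the start follow for *Itgam*, which had the most matches together with *Mrc1*, and for those genes called by DESeq2 in the genotype comparison that had an entry (*C1qb*, *Cx3cr1* and *Lyz2*), with any match in capitals. *Itgal* had no entry.
Itgam, chr7:128062490-128062639, plus strand: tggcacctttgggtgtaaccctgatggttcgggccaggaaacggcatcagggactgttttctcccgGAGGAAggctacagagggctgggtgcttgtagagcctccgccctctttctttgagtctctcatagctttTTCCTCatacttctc
C1qb, chr4:136886201-136886350, minus strand: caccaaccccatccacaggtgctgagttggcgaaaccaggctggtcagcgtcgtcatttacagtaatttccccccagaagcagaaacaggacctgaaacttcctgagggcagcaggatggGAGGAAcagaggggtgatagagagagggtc
Cx3cr1, chr9:120068297-120068446, minus strand: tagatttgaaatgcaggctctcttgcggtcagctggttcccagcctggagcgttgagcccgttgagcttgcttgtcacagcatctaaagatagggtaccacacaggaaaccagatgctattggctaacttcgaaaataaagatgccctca
Lyz2, chr10:117282273-117282422, minus strand: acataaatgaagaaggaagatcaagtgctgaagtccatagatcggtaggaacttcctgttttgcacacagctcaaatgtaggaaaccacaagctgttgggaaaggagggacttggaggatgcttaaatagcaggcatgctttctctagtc
*Itgam* held 2 matches in this stretch, whose first bases lay 84 and 15 bases before the start, and 3 in its 300 bases. *C1qb* held 1 match, 30 bases before the start. *Cx3cr1* and *Lyz2* held none, so that genes with and without these letters were among those with the smallest DESeq2 p-values. A match is a run of letters and was not tested as a binding site.

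Each of the genes except *Cd163* had 3 or more counts in every culture. Together the 32 genes summed to 248.2, 252.3 and 211.3 CPM in the WT cultures and to 299.5, 303.3 and 263.0 CPM in the *Plxnb1*-/- cultures. Every *Plxnb1*-/- culture was thus above every WT culture, the closest pair being WT replicate 2 and *Plxnb1*-/- replicate 3. The ratio of the means was 1.22, from 237.3 ± 22.6 CPM in WT to 288.6 ± 22.2 CPM in *Plxnb1*-/- (SD, n = 3 each). Without *Plxnb1*-/- replicate 3 the ratio was 1.27, and with any 1 culture left out it lay between 1.15 and 1.27. Lysozyme M (*Lyz2*) was the largest single contributor. Without it the remaining 31 genes summed to 148.3, 163.6 and 132.0 CPM in WT and to 183.7, 185.1 and 153.3 CPM in *Plxnb1*-/-, and the groups overlapped, since WT replicate 2 was above *Plxnb1*-/- replicate 3.

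**Figure D1:**
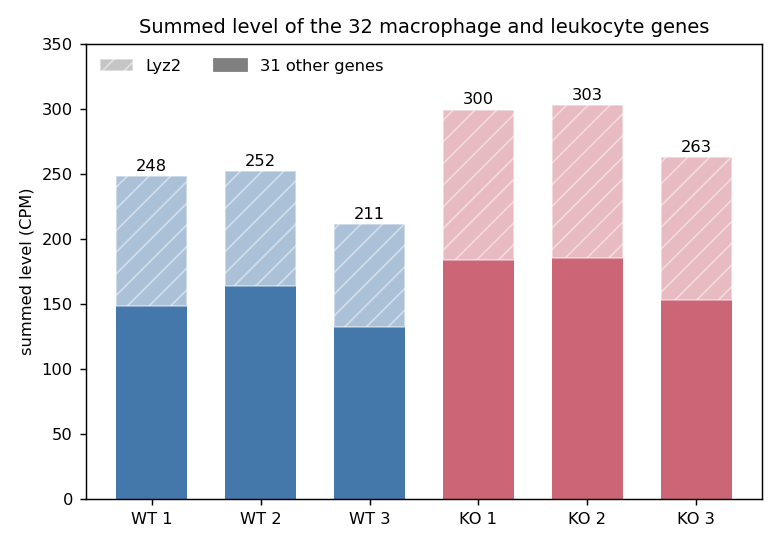
Summed level of the 32 macrophage and leukocyte genes in CPM in each culture (3 WT in blue, 3 *Plxnb1*-/- in red), as bars from 0 with the share of *Lyz2* hatched. The *Plxnb1*-/- bars reach 299.5, 303.3 and 263.0 CPM, all above the WT bars, and the hatched part is the largest from any 1 gene.

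Of the 32 genes, 31 had 2 or more counts in 5 or more libraries and were tested. The scavenger receptor gene *Cd163* did not, at 0 to 0.0828 CPM. The log2 fold change of *Plxnb1*-/- against WT was above 0 for 29 of the 31 genes (93.5%), against 51.5% of all 22318 genes tested. Its median was 0.26 over the 31 genes and 0.005 over all genes. No gene of the list was called by edgeR's quasi-likelihood test at a Benjamini-Hochberg adjusted p under 0.05 and an absolute log2 fold change above 0.25, a rule that called 8 genes or 0.0358% of those tested. At an unadjusted p under 0.05 the same edgeR test had 13 of the 31 genes higher (41.9%, against 6.95% of all genes) and 0 lower. At this level 10 of 14 SC markers and 4 of 6 satellite glia markers were also higher and 0 lower. Of 11 fibroblast markers 5 were lower and 0 higher. Such a share was thus not particular to the list. DESeq2 called 4 genes by the rule of adjusted p and fold change, *C1qb*, *Itgal*, *Cx3cr1* and *Lyz2*, all higher. These were 12.9% of the 31, against 0.690% of all genes. DESeq2 gave no adjusted p for 5 genes of low level, *Fcgr1*, *Aif1*, *Cd74*, *H2-Aa* and *H2-Ab1*. For 12 genes (38.7%) each *Plxnb1*-/- culture was above each WT culture, against 10.9% of all genes, and no gene of the list was separated the other way. With *Plxnb1*-/- replicate 3 left out 30 of the 31 genes were above 0 and their median log2 fold change was 0.37, against 0.005 over all genes. edgeR then called 0 of them and had 17 higher at an unadjusted p under 0.05 (3.49% of all genes) and 0 lower, and 23 were separated (15.2% of all genes). DESeq2 was not run without that culture. With any other culture left out between 26 and 31 genes were above 0. The log2 fold change of 20 of the 31 genes moved by over 1.5 times in at least 1 of these fits.

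**Figure D2:**
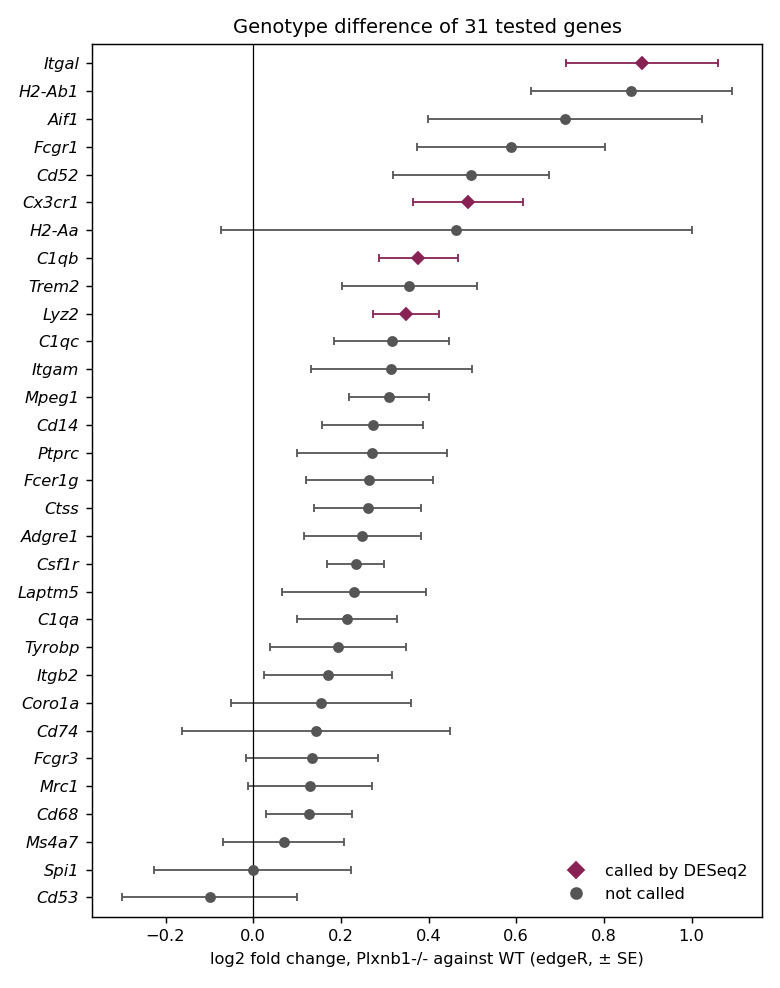
Log2 fold change of *Plxnb1*-/- against WT from edgeR (x axis, bars are the standard error, 3 cultures a group) for the 31 tested genes, ordered by size. Of these, 29 lie above 0, and the 4 diamonds mark genes called by DESeq2, none of which edgeR called.

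The complement component C1q is assembled from 3 chains that macrophages make and secrete. Their genes lie side by side on chromosome 4 (GRCm38), from *C1qb* at 136880129-136886187 over *C1qc* at 136889804-136893065 to *C1qa* at 136895917-136898803, all on the minus strand. *C1qb*, the B chain, was at 10.9, 9.60 and 9.33 CPM in WT and at 13.3, 14.1 and 11.7 CPM in *Plxnb1*-/-. The groups did not overlap, with *Plxnb1*-/- replicate 3 the closest to WT. Its log2 fold change was 0.38 (SE 0.09), with an adjusted p of 0.266 in edgeR and 0.0215 in DESeq2. *C1qa*, the A chain, was at 11.3, 11.1 and 9.38 CPM in WT and at 12.6, 14.0 and 10.5 CPM in *Plxnb1*-/-. *C1qc*, the C chain, was at 11.2, 11.2 and 8.10 CPM in WT and at 13.4, 13.6 and 11.2 CPM in *Plxnb1*-/-. For both of these chains *Plxnb1*-/- replicate 3 fell within the WT range, while the other 2 *Plxnb1*-/- cultures were above it. The log2 fold change was 0.21 (SE 0.11) for *C1qa* and 0.32 (SE 0.13) for *C1qc*, with adjusted p-values of 0.444 and 0.347 in edgeR. Without WT replicate 3 these were 0.13 and 0.17, and *C1qa* was at 0.11 without *Plxnb1*-/- replicate 2. Per kilobase of exon the mean level was 11.1 CPM for *C1qa*, 10.6 CPM for *C1qb* and 5.92 CPM for *C1qc*.

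The CSF1 receptor, on which macrophages depend for survival, and the fractalkine receptor CX3CR1, a marker of resident macrophages and monocytes, were both separated between the genotypes. *Csf1r* was at 14.7, 13.3 and 13.9 CPM in WT and at 17.3, 16.8 and 15.6 CPM in *Plxnb1*-/-. It varied little within a genotype, and its log2 fold change of 0.23 had the smallest standard error of the list (0.06), with an adjusted p of 0.273 in edgeR. *Csf1r* shares 15.1% of its exon bases with *Hmgxb3* on the opposite strand, which had a mean of 4189 counts against 1058, and the strand setting of the counting is not stated. *Cx3cr1* (chr9:119901616-120069879, minus strand) was at 3.15, 2.67 and 2.87 CPM in WT and at 4.45, 4.38 and 3.47 CPM in *Plxnb1*-/-. Again *Plxnb1*-/- replicate 3 was the lowest of its group and still above WT. The log2 fold change was 0.49 (SE 0.13), with an adjusted p of 0.273 in edgeR and 0.0497 in DESeq2. *Cx3cr1* lies on the same chromosome as *Plxnb1*, 10.78 Mb away.

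Among the macrophage surface markers 6 were tested, all with a log2 fold change above 0 (median 0.19), and 3 were separated. *Adgre1*, which codes for the macrophage marker F4/80, was at 3.40, 3.04 and 2.44 CPM in WT and at 3.45, 3.70 and 3.46 CPM in *Plxnb1*-/-. The groups were separated only narrowly, by WT replicate 1 and *Plxnb1*-/- replicate 1. *Cd14*, a co-receptor for bacterial lipopolysaccharide, was at 2.75, 2.80 and 2.37 CPM in WT and at 3.05, 3.22 and 3.37 CPM in *Plxnb1*-/-. It was 1 of 2 genes on the list whose highest culture was *Plxnb1*-/- replicate 3, the other being *Aif1*. *Trem2*, a lipid-sensing receptor that signals through TYROBP, was at 1.80, 1.98 and 1.52 CPM in WT and at 2.15, 2.61 and 2.06 CPM in *Plxnb1*-/-. The log2 fold changes of *Adgre1*, *Cd14* and *Trem2* were 0.25 (SE 0.13), 0.27 (SE 0.12) and 0.36 (SE 0.15), with adjusted p-values of 0.444, 0.349 and 0.357 in edgeR. *Adgre1* was at 0.12 without WT replicate 3. The genotypes overlapped for the endosomal glycoprotein gene *Cd68* (5.256 to 6.597 CPM over the 6 cultures), the mannose receptor gene *Mrc1* (1.73 to 2.28 CPM) and *Ms4a7* (1.38 to 1.73 CPM). Their log2 fold changes were 0.13, 0.13 and 0.07. With 1 culture left out *Cd68* lay between 0.0759 (without *Plxnb1*-/- replicate 2; 0.0769 without WT replicate 3) and 0.20 (without WT replicate 2). *Mrc1* was at 0.0630 and 0.0728 without *Plxnb1*-/- replicates 1 and 2 and at 0.24 without replicate 3. *Ms4a7* was at 0.14 without WT replicate 2, -0.0195 without WT replicate 3 and 0.0391 without *Plxnb1*-/- replicate 1.

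**Figure D3:**
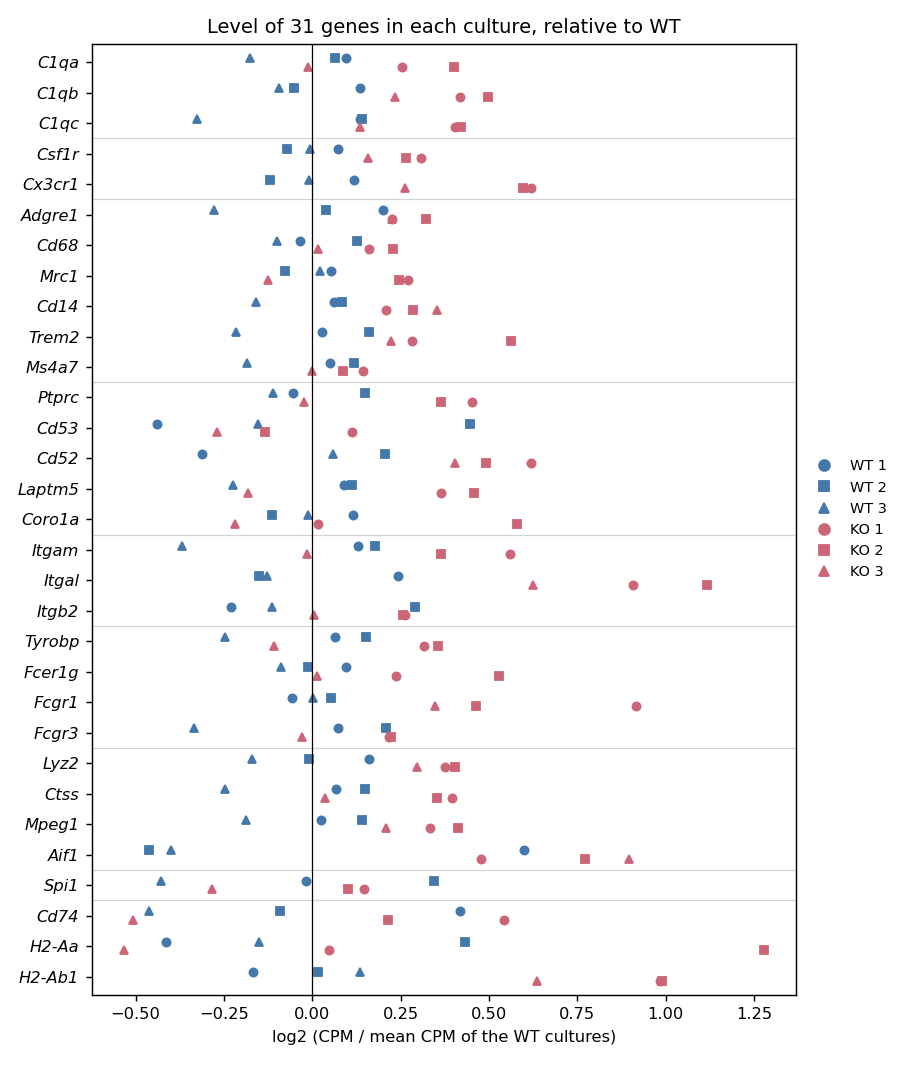
Level of the 31 tested genes in each culture, as log2 of the CPM over the mean CPM of the 3 WT cultures (x axis), with WT in blue and *Plxnb1*-/- in red and the marker shape giving the replicate number. Grey lines part the groups by role, most red points lie right of 0, and for 28 of the 31 genes *Plxnb1*-/- replicate 3 is the lowest red point.

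The pan-leukocyte genes differed in pattern. *Ptprc*, which codes for the phosphatase CD45 on all nucleated blood cells, was at 1.16, 1.33 and 1.11 CPM in WT and at 1.64, 1.55 and 1.18 CPM in *Plxnb1*-/-. *Plxnb1*-/- replicate 3 lay within the WT range, and the log2 fold change was 0.27 (SE 0.17, edgeR adjusted p 0.515), and 0.18 without *Plxnb1*-/- replicate 1. *Cd52*, a small glycoprotein anchored to leukocyte membranes, was at 0.720, 1.03 and 0.930 CPM in WT and at 1.37, 1.26 and 1.18 CPM in *Plxnb1*-/-. It was the only pan-leukocyte gene of the list with separated genotypes, and its log2 fold change was 0.50 (SE 0.18, edgeR adjusted p 0.304). *Cd53*, a tetraspanin of leukocytes, was at 16.5, 30.4 and 20.1 CPM in WT and at 24.2, 20.4 and 18.5 CPM in *Plxnb1*-/-. WT replicate 2 was far above the rest and the genotypes overlapped. Its log2 fold change was -0.10 (SE 0.20, edgeR adjusted p 0.866) and was 0.20 without WT replicate 2, -0.28 without WT replicate 1, -0.17 without WT replicate 3, and -0.21 and -0.0195 without *Plxnb1*-/- replicates 1 and 3. *Laptm5*, a lysosomal protein of blood cells, spanned 5.41 to 8.69 CPM and *Coro1a*, an actin-binding protein of leukocytes, 1.43 to 2.48 CPM, both with overlap. *Laptm5* had a log2 fold change of 0.23, with 0.13 without WT replicate 3, 0.10 without *Plxnb1*-/- replicate 2 and 0.40 without replicate 3. *Coro1a* had 0.15, with -0.11 and 0.31 without *Plxnb1*-/- replicates 2 and 3.

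The 3 integrin genes code for chains that pair with each other on leukocytes, where ITGB2 is the partner of both ITGAL and ITGAM. *Itgal* (chr7:127296260-127335138, plus strand), the alpha chain of LFA-1, was at 1.55, 1.18 and 1.20 CPM in WT and at 2.46, 2.84 and 2.02 CPM in *Plxnb1*-/-. The groups did not overlap, and the mean was 1.31 ± 0.208 CPM in WT and 2.44 ± 0.413 CPM in *Plxnb1*-/- (SD, n = 3 each). This was the largest log2 fold change of the list, 0.89 (SE 0.17), with an adjusted p of 0.235 in edgeR and 0.0039 in DESeq2. With 1 culture left out the log2 fold change lay between 0.76 and 1.02. *Itgb2*, the shared beta chain, spanned 3.90 to 5.59 CPM with the highest value in WT replicate 2, and its log2 fold change was 0.17 (SE 0.15), with 0.35 without that culture and 0.0676 without WT replicate 1. *Itgam*, the alpha chain of complement receptor 3, spanned 2.42 to 4.62 CPM with a log2 fold change of 0.32 (SE 0.18), with 0.16 without WT replicate 3 and 0.18 without *Plxnb1*-/- replicate 1. *Itgam* shares 68.7% of its exon bases with *Gm49368* on the same strand, so its counts are uncertain.

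Adaptors with an ITAM motif pass signals from receptors that lack one. *Tyrobp*, the adaptor of TREM2 also called DAP12, was at 3.48, 3.70 and 2.80 CPM in WT and at 4.14, 4.25 and 3.08 CPM in *Plxnb1*-/-. *Plxnb1*-/- replicate 3 was below WT replicates 1 and 2, and the log2 fold change was 0.19 (SE 0.15, edgeR adjusted p 0.608), with 0.0809 without WT replicate 3 and 0.11 and 0.32 without *Plxnb1*-/- replicates 2 and 3. *Fcer1g*, the common gamma chain of Fc receptors, spanned 2.57 to 3.93 CPM, and *Fcgr3*, a low-affinity receptor for immunoglobulin G, spanned 2.90 to 4.28 CPM, both with overlap. *Fcer1g* had a log2 fold change of 0.26, and of 0.12 without *Plxnb1*-/- replicate 2. *Fcgr3* had 0.13, with 0.26 and -0.0134 without WT replicates 2 and 3, and 0.0880 and 0.21 without *Plxnb1*-/- replicates 2 and 3. *Fcgr1*, the high-affinity receptor for immunoglobulin G, was lower, at 0.501 to 0.540 CPM in WT and 0.663 to 0.983 CPM in *Plxnb1*-/-, without overlap and with a log2 fold change of 0.59 (SE 0.22, edgeR adjusted p 0.308).

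The lysosomal and effector genes included *Lyz2*, which had the highest level of the list, and *Aif1*, which was among the lowest. *Lyz2* (chr10:117277331-117282321, minus strand), the lysozyme of myeloid cells, was at 99.9, 88.7 and 79.3 CPM in WT and at 115.8, 118.1 and 109.7 CPM in *Plxnb1*-/-. The genotypes were well separated and the 3 *Plxnb1*-/- cultures lay close together. The log2 fold change was 0.35 (SE 0.08), with an adjusted p of 0.266 in edgeR and 0.00595 in DESeq2. The near-copy *Lyz1* had 6 to 60 counts against 5258 to 8948 for *Lyz2*. *Mpeg1*, which codes for the pore-forming protein perforin-2, was at 17.6, 19.1 and 15.2 CPM in WT and at 21.8, 23.1 and 20.03 CPM in *Plxnb1*-/-. It was separated too, with a log2 fold change of 0.31 (SE 0.09) and an adjusted p of 0.277 in edgeR and 0.0709 in DESeq2. *Ctss*, the lysosomal protease cathepsin S, was at 12.8, 13.5 and 10.3 CPM in WT and at 16.0, 15.6 and 12.5 CPM in *Plxnb1*-/-. Here *Plxnb1*-/- replicate 3 was below WT replicates 1 and 2, and the log2 fold change was 0.26 (SE 0.12, edgeR adjusted p 0.383), and 0.15 without WT replicate 3. *Aif1*, which codes for the cytoplasmic marker IBA1, was at 0.270 to 0.564 CPM in WT and 0.518 to 0.692 CPM in *Plxnb1*-/-, with a log2 fold change of 0.71 (SE 0.31) that was 1.13 without WT replicate 1.

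*Spi1*, whose product PU.1 drives many genes of the list, was at 1.14, 1.47 and 0.859 CPM in WT and at 1.28, 1.24 and 0.951 CPM in *Plxnb1*-/-. The 2 genotypes had nearly the same mean, 1.157 ± 0.305 and 1.158 ± 0.180 CPM (SD, n = 3 each), and the log2 fold change was -0.001 (SE 0.22, edgeR adjusted p 0.999). It lay between -0.18 (without WT replicate 3) and 0.21 (without WT replicate 2) with 1 culture left out. Genes of MHC class II, which presents antigen to T cells, were near the bottom of the list. The invariant chain gene *Cd74* spanned 0.519 to 1.07 CPM and *H2-Aa* 0.0865 to 0.304 CPM, both with overlap. *Cd74* had a log2 fold change of 0.14, with 0.41 and -0.0508 without WT replicates 1 and 3, and -0.10 and 0.38 without *Plxnb1*-/- replicates 1 and 3. *H2-Aa* had 0.46, with 0.30 and 0.73 without WT replicates 1 and 2, and -0.21 and 0.77 without *Plxnb1*-/- replicates 2 and 3. *H2-Ab1*, the beta chain of the same class II molecule as *H2-Aa*, was at 0.297, 0.338 and 0.366 CPM in WT and at 0.660, 0.662 and 0.519 CPM in *Plxnb1*-/-. It was separated, with a log2 fold change of 0.86 (SE 0.23, edgeR adjusted p 0.273).

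Levels can be compared between genes only per length, and were divided for this by the merged exon length of all annotated transcripts, which lowers genes with long and rarely used exons. On this scale of mean CPM per kilobase *Lyz2* was first at 77.5, followed by *Cd53* (12.4), *C1qa* (11.1), *C1qb* (10.6) and *Ctss* (9.89). The adaptor *Tyrobp* (5.36) was above its receptor *Trem2* (0.408), *Fcer1g* (3.45) was above *Fcgr3* (2.22) and *Fcgr1* (0.253), and *Itgb2* (1.60) was above *Itgam* (0.701) and *Itgal* (0.285). *Ptprc* had 0.0726 and *Cd163*, the lowest, 0.0065. Markers that define macrophages were thus present in every culture at unequal levels: per kilobase *Csf1r* had 2.64, *Adgre1* 1.00, *Cx3cr1* 0.776, *Spi1* 0.429, *Aif1* 0.322 and *Mrc1* 0.311.

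The levels of the genes varied together from culture to culture. Over the 26 genes with a mean of at least 1 CPM the median of Pearson's r of log2 CPM was 0.72 over 325 pairs (quartiles 0.54 and 0.85), and r was above 0 in 96.9% of the pairs. Over all pairs of the 14996 genes of that level the median was 0.016. After each genotype's mean was taken off, the median was 0.61 for the list and 0.014 for all genes, so it was present with the genotype difference removed. These values describe 6 cultures, in each of which all genes share 1 library and its depth, and with 1 culture left out the median lay between 0.65 and 0.84. WT replicate 3 was the lowest culture for 18 of the 31 tested genes, and *Plxnb1*-/- replicate 3 was below the other 2 *Plxnb1*-/- cultures for 28. Replicate 2 of *Plxnb1*-/- was the highest culture for 16 genes and replicate 1 for 10.

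The pairs were not all alike. *C1qc* (median r 0.85 with the other genes), *Mpeg1* (0.84) and *Tyrobp* (0.82) followed the list most closely. With genotype means taken off, the highest medians were those of *C1qc* (0.79), *C1qa* (0.79) and *Spi1* (0.78, against 0.58 before). *Mpeg1* was then at 0.73, and *Csf1r* at 0.41 against 0.70 before. *Csf1r* and *Cx3cr1* had an r of 0.99 with each other and of 0.97 each with *Itgal*, and *C1qb* had an r of 0.96 with *Lyz2* and with *Csf1r*. *Fcgr3* and *Ms4a7* had an r of 0.99, and *Spi1* had an r of 0.91 with *Fcgr3* but of 0.10 with *Csf1r*. *Cd53* followed the list least (median r 0.17), while with genotype means taken off *Cd52* did (0.09), followed by *Cd14* (0.25) and *Cd53* (0.35). Its highest r was with *Itgb2* (0.79) and *Spi1* (0.66), and these 3 genes were the ones highest in WT replicate 2.

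**Figure D4:**
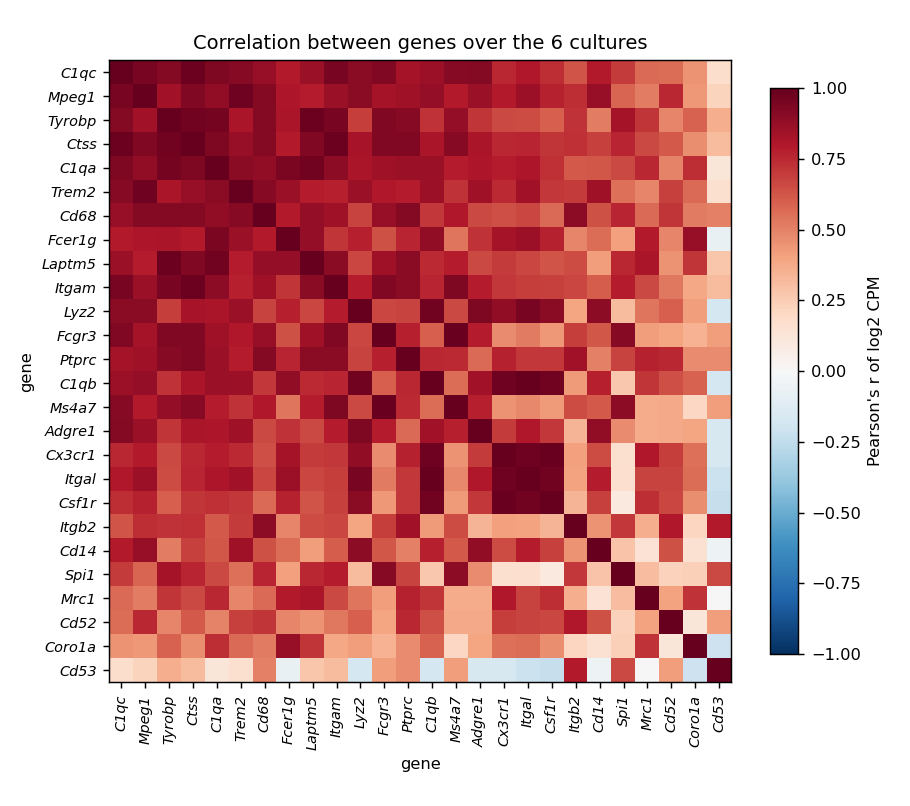
Pearson's r of log2 CPM over the 6 cultures between each pair of the 26 genes with a mean of at least 1 CPM (red positive, blue negative), ordered by the median r with the other genes. Most cells are red, with 96.9% of the pairs above 0, and *Cd53* stands apart in the last row with a median r of 0.17.

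The protein-coding genes outside all lists that ran most nearly parallel to the sum of the 32 genes over the 6 cultures were *Prodh* (r 0.99), *BC052040* (0.99), *AC109138.7* (0.97), *Lrrc57* (0.97), *Clec4d* (0.97), *Dbt* (0.97), *Ccnt2* (0.96), *Nthl1* (0.96), *Acad8* (0.96) and *Vps35l* (0.96). With 6 points and 12603 genes ranked, 12 reached an r of 0.95. Against the sum without *Lyz2* the r of the 10 named genes lay between 0.86 (*Vps35l*) and 0.98 (*BC052040*), and *BC052040*, *AC109138.7* and *Dbt* were the 3 still above 0.95. *Clec4d*, a C-type lectin of myeloid cells, was at 1.14, 1.20 and 0.888 CPM in WT and at 1.62, 1.46 and 1.34 CPM in *Plxnb1*-/-. *Prodh*, which codes for the proline-degrading enzyme of mitochondria, was at 2.10, 2.13 and 1.58 CPM in WT and at 2.67, 2.64 and 2.31 CPM in *Plxnb1*-/-. The sum with which they were matched is itself higher in *Plxnb1*-/-, so these levels are a description.

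Further genes of the same pathways and cells were read from lists of their own, 197 genes in 21 lists of which 153 were tested. None of these 153 was called by edgeR, in which 31 were higher and 13 lower at an unadjusted p under 0.05 (20.3% and 8.50%, against 6.95% and 6.78% of all genes). DESeq2 called 8 of them, 5 higher and 3 lower (3.27% and 1.96%, against 0.690% and 0.811%). Log2 fold changes given with a gene are those of edgeR. Of 24 tested genes among 26 further macrophage genes, 20 were above 0 and 4 below (median log2 fold change 0.23), with 2 called higher by DESeq2, the NADPH oxidase subunit gene *Cybb* (0.62) and the phagocytic receptor gene *Mertk* (0.34). The lysosomal protease gene *Lgmn* was the most abundant of them at 147.4 to 156.5 CPM and had a log2 fold change of 0.00, while the lectin receptor *Clec12a* (0.96) and *Cd5l* (-1.42) had the extreme values at under 0.5 CPM. *Lyve1*, a receptor for hyaluronan on resident macrophages, was lower, at 2.85, 2.72 and 2.42 CPM in WT and at 1.90, 1.99 and 1.76 CPM in *Plxnb1*-/-, without overlap. Its log2 fold change was -0.51 (SE 0.12), with an adjusted p of 0.266 in edgeR and 0.065 in DESeq2. Of 11 other pan-leukocyte genes 8 were above 0 (median 0.13), led in level by the actin-bundling *Lcp1* (0.29), with *Sash3* (0.55) and *Cytip* (-0.70) at the ends. Of 12 tested genes of ITAM and Fc signalling 8 were above 0 (median 0.21), from *Vav1* (0.70) to *Fcgr4* (-0.50), with the kinase gene *Lyn* (-0.15) the most abundant.

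The partners of C1q, the ligands of the receptors and the regulators of the list did not share one direction. Of 4 tested genes of C1r, C1s and the C1 inhibitor 3 were above 0, and the inhibitor gene *Serping1* was at 20.1, 27.1 and 26.3 CPM in WT and at 34.2, 29.1 and 33.4 CPM in *Plxnb1*-/-, with a log2 fold change of 0.38 and a call by DESeq2. *C1s2* (0.79) and *C1ra* (-0.04) had the extreme values. Of 6 tested ligands of the CSF1 receptor and of macrophage chemokine receptors 5 were below 0 (median -0.11). *Csf1* was the most abundant, at 64.5 to 77.5 CPM with a log2 fold change of -0.07, *Il34*, the other ligand of the CSF1 receptor, was highest at 0.35 and *Ccl7* lowest at -0.35. With 1 culture left out *Csf1* ran from -0.13 to 0.0152, *Il34* from 0.20 to 0.45 and *Ccl7* from -0.51 to -0.19. Of 9 myeloid transcription factors 4 were above 0 (median -0.05), from *Ikzf1* (0.35) to *Cebpb* (-0.21), with *Runx1* (-0.08) the most abundant. *Ikzf1* had 20 to 59 counts and ran from 0.0527 to 0.56 with 1 culture left out, and *Runx1* from -0.13 to -0.04. Of 8 tested genes of the MHC class II pathway 4 were above 0, with *Rfxank* (0.16) both the most abundant and the highest and *H2-DMb2* (-0.88) the lowest at under 0.06 CPM.

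Markers of other blood cells ranged from 0 counts in every library to levels above those of several genes of the list. Of 12 T and NK cell markers 6, the CD3 chains *Cd3e*, *Cd3d* and *Cd3g* as well as *Nkg7*, *Ncr1* and *Gzma*, had 0 counts in every library, which allows up to 0.0506 CPM each, and *Trac* was the most abundant of the others at 1.01 to 2.23 CPM. *Lck* (0.836 to 1.69 CPM) and *Klrb1c* (0.979 to 1.21 CPM) followed, and *Klrb1c* (0.08) and *Cd4* (-0.70) had the extreme log2 fold changes. The B cell marker *Ms4a1* had at most 2 counts in any library, *Cd22* (0.22) was the most abundant and *Cd79a* had -0.73. The neutrophil genes *S100a8* and *Ly6g* had at most 8 counts and *S100a9* at most 6, *Csf3r* (0.96) was the most abundant, and *Ly6g* (1.97) and *Mpo* (-1.13) had the extreme values on these few counts. Of the mast cell markers *Kit* alone was tested (1.07 to 1.88 CPM, -0.28) and *Cpa3* had at most 4 counts. Of the erythroid markers *Alas2* alone was tested (-0.11). Of 6 tested dendritic cell markers 4 were above 0, with *Zbtb46* the most abundant (6.25 to 8.62 CPM, 0.11), *Itgax* next (1.40 to 2.19 CPM) and *Ccr7* (0.28) and *Xcr1* (-0.68) at the ends. Of 6 genes used as markers of microglia, the macrophages of the brain, *Siglech* had 0 counts in every library and *Gpr34* at most 4. *Olfml3* was the most abundant (93.9 to 124.9 CPM, -0.02), *Sall1* (0.70) had the highest log2 fold change, and *Tmem119* (58.4 to 90.9 CPM, -0.33, called lower by DESeq2) the lowest. *Tmem119* lay between -0.38 and -0.21 with 1 culture left out. Which cells of the cultures held the RNA of *Olfml3* and *Tmem119* was not tested, so their levels are not a measure of microglia. The part of these cells in the levels of the list was not tested.

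Markers of the other cells of the cultures were read in the same way. Of 14 SC markers 13 were above 0 (median log2 fold change 0.22), and their sum was 3830, 3146 and 3802 CPM in WT and 3916, 4331 and 4444 CPM in *Plxnb1*-/-. None of the 14 was at 0. The extreme values were those of *Gfra3* (0.97, called higher by DESeq2) and *Foxd3* (-0.02). Of 11 fibroblast markers 9 were below 0 (median -0.14), and their sum was 17290, 21030 and 17950 CPM in WT and 16000, 16560 and 16100 CPM in *Plxnb1*-/-. Its most abundant gene was *Col1a1* (-0.30, called lower by DESeq2), none was at 0, and *Ly6a* (0.39) and *Dpt* (-0.39) had the extreme values. With 1 culture left out *Col1a1* ran from -0.36 to -0.19, *Ly6a* from 0.13 to 0.70 and *Dpt* from -0.70 to -0.22. The genotypes were thus separated for both sums, upwards for SC markers and downwards for fibroblast markers. Most of the fibroblast sum was RNA of *Col1a1*, *Col1a2* and *Col3a1*, with means of 5634, 5488 and 4899 CPM. By gene, 5 of the 11 fibroblast markers were separated downwards. The others overlapped, among them *Pdgfrb* (-0.13), *Dcn* (-0.006) and *Lum* (0.08). WT replicate 2, with the highest *Cd53*, *Itgb2* and *Spi1*, had the most fibroblast and the least SC marker RNA. The part of these cell markers in the higher level of the macrophage genes was not tested.

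**Figure D5:**
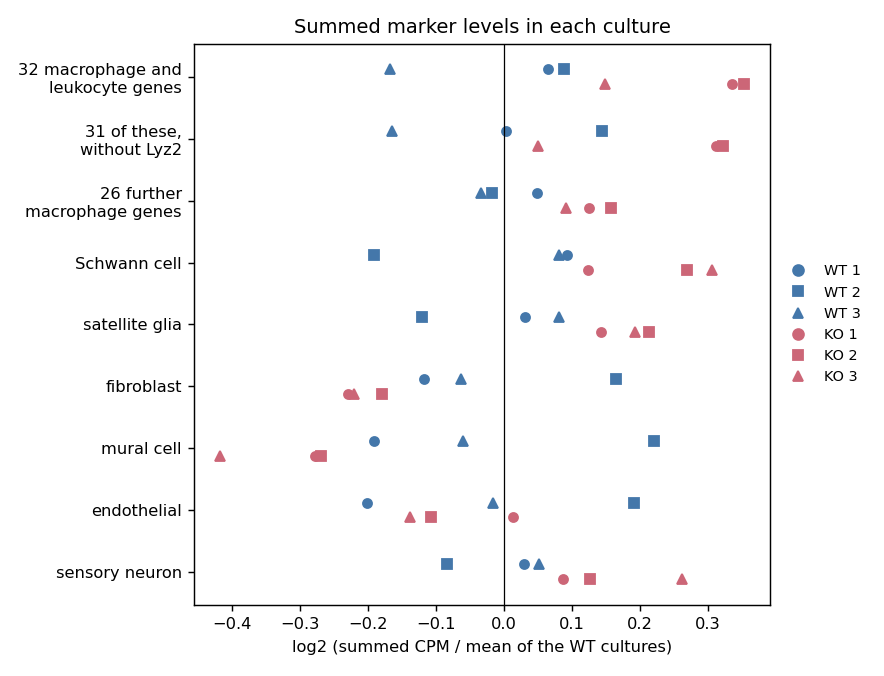
Summed CPM of each marker list in each culture, as log2 of the ratio to the mean of the 3 WT cultures (x axis), with WT in blue, *Plxnb1*-/- in red and the marker shape giving the replicate number. All red points lie right of all blue points for the 32 macrophage and leukocyte genes, the further macrophage genes, and the SC, satellite glia and sensory neuron markers, and left of them for the fibroblast and mural cell markers. Of the 8 mural cell markers 6 had a log2 fold change above 0, and the most abundant, *Acta2*, was lower. They overlap for the list without *Lyz2* and for the endothelial markers.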

How the data were processed

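Bulk RNA-seq of 6 SC cultures was grouped by the genotype in the labels. Per the labels and the study's methods, the authors trimmed reads with Trim Galore 0.6.5, aligned them to mm10 with Bowtie2 2.4.1, removed duplicates with SAMtools 1.10 and counted exonic reads with featureCounts; these deposited counts are not normalized. Bowtie2 does not split reads across introns, and the strand setting of counting was not given in the sources used here. The FPKM values that the authors deposited were used in 1 alternative only, as log2(FPKM + 0.1); their length was the span of the gene with introns in 99.4% to 99.5% of genes. Low counts were mostly even (64.5% of counts from 1 to 20, 50.0% of those of 1000 or more), so counts are not independent molecules, and limits cover counting error only.

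Identifiers without version matched a GRCm38 GENCODE annotation (55141 of 55401). The 22318 genes that reached 2 counts in 5 or more libraries were tested with edgeR 4.0.16 (TMM, quasi-likelihood F-test, genotype only) in R 4.3.3, with Benjamini-Hochberg adjustment over all of them. The standard error is the log2 fold change over the square root of F. DESeq2, which the study names, was run here in version 1.42.0 on the same genes. limma 3.58.1 was used for FPKM. Tables were made with Python 3.11.15 and pandas 2.3.3.

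The genes and lists were chosen with earlier results of these data known. Values in every culture were given for genes called by either tool, for separated genes with a mean of at least 1 CPM, for the C1q chains and defining genes, and for the 5 highest per kilobase. Of the other lists the most abundant gene, both extremes and called genes were named, and outside them the 10 protein-coding genes best correlated with the sum; *H2-Ab1*, *Lyz1*, *Lyve1* and other genes given with values were added after these were seen. Some items that this rule names are not reported here. Alternatives were other scalings, filters and tools, each replicate left out, a replicate block, and, chosen after seeing the data, halved counts and a newer edgeR estimate.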

Additional observations from a re-analysis of the deposited data

How the results depend on the processing

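Of 527 log2 fold changes of the macrophage and leukocyte genes over 17 alternatives, 507 kept their direction and their side of the threshold, 14 reversed and 6 gained a call. DESeq2 called 4 genes of the list, 8 of the other lists and 335 of all genes, and edgeR without a filter on low counts called 2 (*Itgal* and *Lyz2*, against 0.385% of all genes called higher), 11 and 296, against 0, 0 and 8 in the report; the cause was not tested. On log2(FPKM + 0.1), 17 of the 31 log2 fold changes moved by over 1.5 times (*Itgal* 0.28, *Cx3cr1* 0.0852, *Ptprc* 0.0291) and their median was 0.18. All genes called numbered 3 with limma on FPKM and between 4 and 25 with 1 culture left out, the 25 without WT replicate 2, 5 without *Plxnb1*-/- replicate 1 and 4 without replicate 2 or 3. With a replicate block all genes called numbered 5 and none of the list was called. By r, same-numbered cultures of the genotypes did not deviate together (-0.018, 0.003 and 0.050), and the numbers were not taken as pairs. The list itself differed from this, since replicate 3 had the smallest sum of the 32 genes within each genotype. Whether same-numbered cultures shared a step was not tested. The block lowered the unadjusted edgeR p of some genes of the list, among them *C1qa* and *C1qc*. It raised that of others, among them *Itgal* and *Csf1r*. *Spi1*, at -0.001, was above 0 without a filter (0.0011), with the replicate block (0.0051), with limma (0.0018), with counts halved (0.0238) and with the newer estimate (0.0136), the last 2 chosen after seeing the data. With 1 culture left out the log2 fold change spanned 0 for *Ms4a7* (-0.0195 to 0.14), *Cd53* (-0.28 to 0.20), *Coro1a* (-0.11 to 0.31), *Fcgr3* (-0.0134 to 0.26), *Spi1* (-0.18 to 0.21), *Cd74* (-0.10 to 0.41) and *H2-Aa* (-0.21 to 0.77). Over these alternatives the adjusted p ran from 0.0039 to 0.459 for *Itgal*, from 0.00595 to 0.661 for *Lyz2*, from 0.0215 to 0.567 for *C1qb* and from 0.0497 to 0.554 for *Cx3cr1*, the lowest in each case from DESeq2. Several further genes named from the other lists moved by over 1.5 times with 1 culture left out. Among them were *Cd5l* (-1.82 to -0.84), *Sash3* (0.29 to 0.76), *Cytip* (-1.27 to -0.16), *Fcgr4* (-0.73 to -0.14), *C1s2* (0.44 to 1.27), *Mpo* (-1.50 to -0.10) and *Isl1* (0.99 to 2.26). Precision is limited by 3 cultures a group and, for genes under 1 CPM, by their few counts.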

Other observations

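The remaining cell types of the ganglion had their own directions. All 6 satellite glia markers were above 0 (median log2 fold change in edgeR 0.20), with the potassium channel gene *Kcnj10* the most abundant (0.16), the glutamate transporter gene *Slc1a3* the highest (0.71), *Glul* the lowest (0.02) and the lipid carrier gene *Apoe* called higher by DESeq2 (0.31). All 10 sensory neuron markers were above 0 (median 0.30), led in level by *Tubb3* (0.12), with *Isl1* at 1.43 on under 0.5 CPM and *Nefh* at 0.05. Of 8 mural cell markers 6 were above 0 (median 0.11), and *Higd1b* was highest (0.41). The most abundant, the smooth muscle actin gene *Acta2*, was at 823.3, 1159 and 910.2 CPM in WT and at 766.6, 746.8 and 667.5 CPM in *Plxnb1*-/- (-0.42, called lower by DESeq2). With 1 culture left out *Acta2* lay between -0.52 and -0.26. *Cspg4* (-0.29) was the other mural cell marker below 0, so the lower sum of this list ran against most of its members. Of 8 endothelial markers 6 were below 0 (median -0.44), with *Cdh5* the most abundant (-0.06), *Tek* the highest (0.59) and *Cldn5* the lowest (-1.28). *Cldn5* had 2 to 22 counts and ran from -1.82 to -0.29 with 1 culture left out, and *Cdh5* from -0.15 to 0.05. None of these markers was called by edgeR.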
